A study of Rattus norvegicus with 311 samples.

Results

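The 100 probes described here were chosen by their counts in vehicle wells: each was lowest on day 3 of culture and higher again on day 7. They come from a TempO-Seq table of 22253 probes, an assay in which pairs of short detector oligos are ligated on their target RNA and counted. The choice used the 24 vehicle libraries of both cultures. Counts were scaled by the library total to CPM, and log2(CPM + 1) was averaged per day. Of the 5828 probes with a mean of at least 10 CPM on day 1 and on day 7, 2967 were lower on day 3 than on both other days. The 100 with the highest dip, taken as the smaller of day 1 minus day 3 and day 7 minus day 3, are the members, and their dips lay between 1.64 and 3.40 on the log2 scale with a median of 1.98.

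The study cultured freshly isolated hepatocytes of male Sprague Dawley rats, with non-parenchymal liver cells (co-culture) or without them (monoculture), on flat plates. Wells received phenobarbital (0.1, 1 or 10 mM), GW7647 (0.01, 0.1 or 1 µM), gemfibrozil (10, 100 or 1000 µM), ketoconazole (1, 10 or 30 µM) or vehicle for the 24 hours before collection on days 1, 3 and 7 after plating. The 311 libraries form 78 groups of 3 to 5 (155 co-culture and 156 monoculture libraries). Phenobarbital activates the nuclear receptor CAR, GW7647 and gemfibrozil are ligands of PPAR-alpha or of the fibrate class, and the antifungal azole ketoconazole blocks several cytochrome P450 enzymes. The labels give no age of the animals and no statement of which wells share a donor, so p-values reflect well-to-well spread, which may be technical.

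Isolated hepatocytes that attach to a plate pass through a period of stress and then lose part of their liver-specific expression. The acute phase response, driven in liver by interleukin 6 through the shared receptor chain gp130 and by interleukin 1, makes plasma proteins such as C-reactive protein and complement C3. The unfolded protein response senses misfolded protein in the endoplasmic reticulum, in part through the kinase and nuclease IRE1, and raises chaperones there. Both systems have genes among the members.

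The members matched RefSeq rat genes in 87 of 100 cases (86 by symbol or synonym and 1 after a trailing decimal was removed from the name), and 13 matched none. Those with the highest dips included LOC688473, Agtpbp1, Daxx, Il6st, Hmgn4, Mat2a, Cyp2c6v1, Cdk4, Stau1, Erbb3, Scarb2, Esyt1, LOC100909712, Wdr82, Lap3, Arhgef12, Igbp1, Nek6, Hmox1, Vps28, Atp6v1d, LOC103691744 and Col5a3. The members just inside the limit were Acly, Lsm8 and Zfp276, with dips of 1.65, 1.65 and 1.64, and the probes just outside were Arg1, Cyp4a2 and Cltc, with dips of 1.63, 1.63 and 1.63. Sorted by role after their names were known, they include cytokine and acute phase genes (Crp, C3, Il6st, Il1rn, Il1r2, Cxcr4), genes of the endoplasmic reticulum (Hyou1, Ern1, Ero1l, Selenos), of iron and haem (Hmox1, Ftl1l1), of Golgi, lysosome and vesicle traffic (Rab30, Rab9a, Golph3, Scarb2, Ppt1, Vps28, Atp6v1d), of matrix and adhesion (Col5a3, Loxl4, Ltbp1, Cadm1, Alcam) and of cell cycle, chromatin and signalling (Cdk4, Cdc27, Daxx, Hdac1, Erbb3, Vegfa). Several are members of families with near-identical copies: Hmgn4 and Hmg1l1 matched RefSeq pseudogenes, and Ftl1l1 and Cyp2c6v1 have close paralogs, so their probes may read more than 1 gene.

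RefSeq holds a promoter for 68 of the member genes (bases 250 before to 50 after the start, build GRCr8). The motif made of ATTGG, any base and CCACG, 1 form of the endoplasmic reticulum stress element bound by ATF6 and XBP1, was found on either strand in 15 of 27457 promoters (0.055%, first listed start of each gene) and in 2 of the 68 member promoters, Hyou1 and Cdc27. This motif was searched after seeing where CCAAT and CCACG, which it contains, had matched, so the counts are a description. The bases upstream of the start of both genes are shown because both were called higher with phenobarbital, as described later, although the call of Cdc27 was lost without plate 5, without plate 7, in each culture alone and with probes detected as a covariate (highest edgeR adjusted p 0.57); capitals mark the motif, which reads here on the opposite strand. The Hyou1 promoter holds it from 188 to 178 and again from 88 to 78 bases before the start, and Cdc27 from 232 to 222 bases before it. The other listed start of Hyou1 has no match, which says only that these letters are not in that window.
Hyou1, chr8:53602632-53602881, plus strand: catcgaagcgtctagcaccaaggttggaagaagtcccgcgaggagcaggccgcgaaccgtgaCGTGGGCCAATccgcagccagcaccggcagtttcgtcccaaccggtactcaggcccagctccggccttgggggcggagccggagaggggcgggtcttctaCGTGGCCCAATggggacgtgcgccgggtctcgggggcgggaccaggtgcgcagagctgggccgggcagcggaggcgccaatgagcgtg
Cdc27, chr10:89949771-89950020, minus strand: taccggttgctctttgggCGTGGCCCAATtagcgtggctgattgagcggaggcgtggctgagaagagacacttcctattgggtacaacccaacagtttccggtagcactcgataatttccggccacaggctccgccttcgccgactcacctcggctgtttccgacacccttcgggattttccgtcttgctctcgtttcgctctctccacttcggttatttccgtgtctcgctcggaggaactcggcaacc
Among shorter motifs, CCACG occurred in 36 of the 68 member promoters (52.9%) and in 32.5% of all promoters, CACGTG in 13.2% and 6.65%, TGACGTCA in 4.41% and 1.91%, CCAAT in 36.8% and 37.7%, TGANTCA in 4.41% and 7.33%, and TTCNNNGAA in 2.94% and 8.68%. Matches of CCACG can overlap CACGTG, and both strands were searched.

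Before the results, the quality of the day 3 vehicle libraries has to be given. The member choice leans on wells with few probes detected: the co-culture library of plate 1 (plate numbers are the digits before the well position in the column names) had 9702 probes with at least 1 count and 30 of the 100 members at 0 counts, and the monoculture library of plate 1 had 8459 probes and 64 members at 0. The other day 3 co-culture libraries had 4, 14 and 8 members at 0, and the other monoculture libraries 0, 0 and 1. No member was at 0 in any vehicle library of day 1 or day 7, when 11943 to 13449 and 13281 to 14910 probes were detected. Without the monoculture library of plate 1 the rule picked 88 of the same 100 probes, and the members' median dip was 1.70. Library totals over the series lay between 412414 and 12272575 counts with a median of 6054414. Summed hepatocyte markers (23 of 24 with a probe) had a median of 62454 CPM on day 1, 47434 CPM on day 3 and 28552 CPM on day 7 in vehicle wells.

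**Figure D1:**
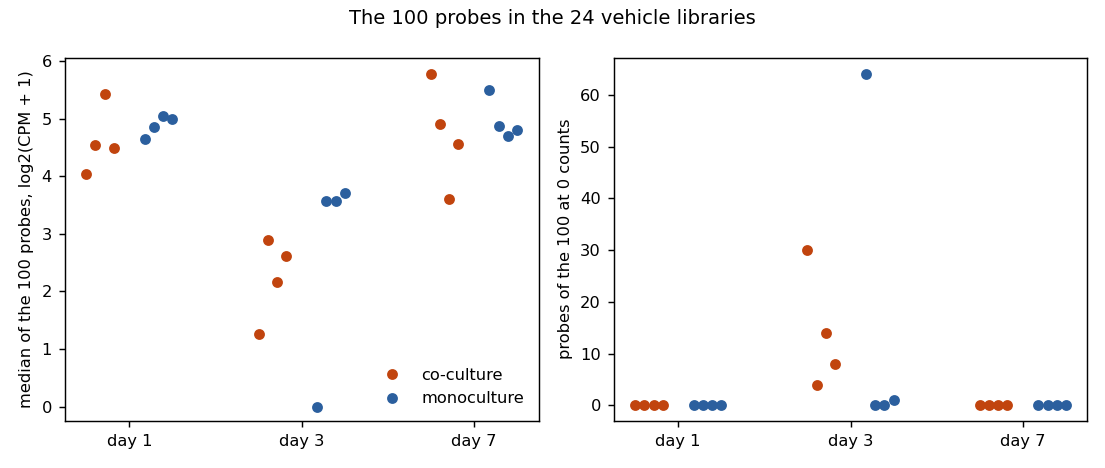
The 24 vehicle libraries by day and culture (points are libraries); left, the median of the 100 members as log2(CPM + 1), right, the number of members at 0 counts. On day 3 the medians spread between 0 and 3.71, and the monoculture library with 64 members at 0 stands apart from the other 3 of its group.

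In vehicle wells the members' mean level on day 3 was below 10 CPM for 66 of 100 probes. This day pattern is what chose them, so the values that follow are a description. In bulk libraries fewer cells of a type and less RNA per cell cannot be told apart. Crp, which encodes C-reactive protein, had 72.6, 120 and 208 CPM (lowest, median and highest of 8 libraries) on day 1. On day 3 it had 12.5, 7.67, 6.40 and 17.3 CPM in co-culture, against 15.6, 13.1, 6.02 and 18.2 CPM in monoculture. On day 7 it had 7.43, 83.7 and 128 CPM. All day 3 values of Crp lay under every day 1 value, while 1 day 7 library lay among them.

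Hyou1, an endoplasmic reticulum chaperone, had 60.0, 74.4 and 120 CPM on day 1 (lowest, median and highest). On day 3 it had 15.5, 22.8, 11.2 and 15.4 CPM in co-culture, against 2.65, 50.1, 44.4 and 53.9 CPM in monoculture. On day 7 it had 94.5, 129 and 177 CPM. Its day 3 values lay under all those of both other days in every library, and the 4 co-culture values lay under 3 of the 4 monoculture values.

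Il6st, which encodes gp130, had 27.3, 58.1 and 140 CPM on day 1. On day 3 it had 0.555, 14.9, 5.33 and 6.04 CPM in co-culture, against 1.77, 20.5, 27.5 and 15.4 CPM in monoculture. On day 7 it had 46.5, 88.4 and 190 CPM (lowest, median and highest). The library of plate 1 was the lowest of its group in each culture, and monoculture plate 5 alone reached the day 1 range.

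Hmox1, the enzyme that degrades haem, had 10.7, 32.5 and 71.3 CPM on day 1 (lowest, median and highest). On day 3 it had 0, 3.36, 5.07 and 1.87 CPM in co-culture, against 0, 3.23, 5.67 and 4.63 CPM in monoculture. On day 7 it had 5.56, 16.4 and 28.1 CPM. Both libraries at 0 on day 3 were those of plate 1, and the day 7 median was below that of day 1.

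Daxx, a histone chaperone, had the third highest dip. It had 57.4, 97.1 and 143 CPM on day 1 (lowest, median and highest) and on day 7 16.3, 85.5 and 187 CPM. On day 3 it had 5.55, 6.47, 1.87 and 13.5 CPM in co-culture, against 0, 37.6, 41.6 and 38.0 CPM in monoculture. The co-culture values lay under 3 of the monoculture values, and the monoculture library of plate 1 was at 0.

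Of the 100 members, 30 had every day 3 vehicle value under every day 1 value, 15 had every day 3 value under every day 7 value and 6 had both. The choice favours such separation, and its share among all eligible probes was not counted, so nothing about the members is read from these counts. On the log2 scale 56 members were higher on day 7 than on day 1. Other probes of the same gene did not always dip as far: the remaining Sugt1 probe had mean levels of 339, 203 and 253 CPM on days 1, 3 and 7, the other Arpc2 probe 58.7, 47.2 and 52.1 CPM, and the other Maged1 probes 34.2, 24.6 and 66.5 CPM and 86.0, 84.5 and 166 CPM.

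Wells that took no part in the choice repeat the dip from day 1 for most members. The rise to day 7 was called for 28 of 100 members, near the 22.5% of all tested probes. The 96 libraries of the lowest doses (phenobarbital 0.1 mM, GW7647 0.01 µM, gemfibrozil 10 µM and ketoconazole 1 µM, both cultures) were fitted in edgeR's quasi-likelihood test with Benjamini-Hochberg adjustment over 13566 probes, without vehicle. These wells carry the lowest dose of a compound and share plate numbers with the vehicle wells. On day 3 against day 1, 78 of 100 members fell and 0 rose (adjusted p under 0.05), where 14.6% of all tested probes fell. The members' median log2 fold change was -1.07 and that of all tested probes was 0.00 (-0.0012). Without plate 5 the count was 38, where 7.95% of all tested probes fell.

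On day 3 against day 7, 28 of 100 members were lower and 0 higher, where 22.5% of all tested probes were lower. The median log2 fold change was -0.47 over members and -0.10 over all tested probes. Without plate 1 the count was 18 (19.8% of all tested probes) and without plate 9 it was 59 (25.8%), so how far the members stand from all probes depends on the plates used. Lower than on both other days were 27 of 100 members, against 2.88% of all tested probes (391 of 13566).

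The number of probes detected moved with these results. In the lowest-dose wells it was 9151 to 14074 on day 1 (median 12475), 9145 to 14784 on day 3 (median 11872) and 11316 to 15538 on day 7 (median 13516). That number was then used as a covariate, chosen after seeing the data. It comes from the same counts, the members included, and differed by day. Day and covariate therefore cannot be fully told apart in this fit. With it 74 members were lower on day 3 than on day 1, where 16.8% of all tested probes were. Against day 7, however, 43 members were higher and 11 lower, with a median log2 fold change of 0.61. Of all tested probes 22.7% were higher and 21.8% lower than on day 7, so the 11 lie below the share of all probes. The same 11 members were lower than on both days with and without the covariate: Cyp2c6v1, Erbb3, Col5a3, Crp, Il1r2, C3, Hyou1, Cxcr4, Slfn4, Hdac1 and Ltbp1. Of the 16 others called lower on both days, 11 had a fitted day 3 level above that of day 7 in the fit with the covariate.

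**Figure D2:**
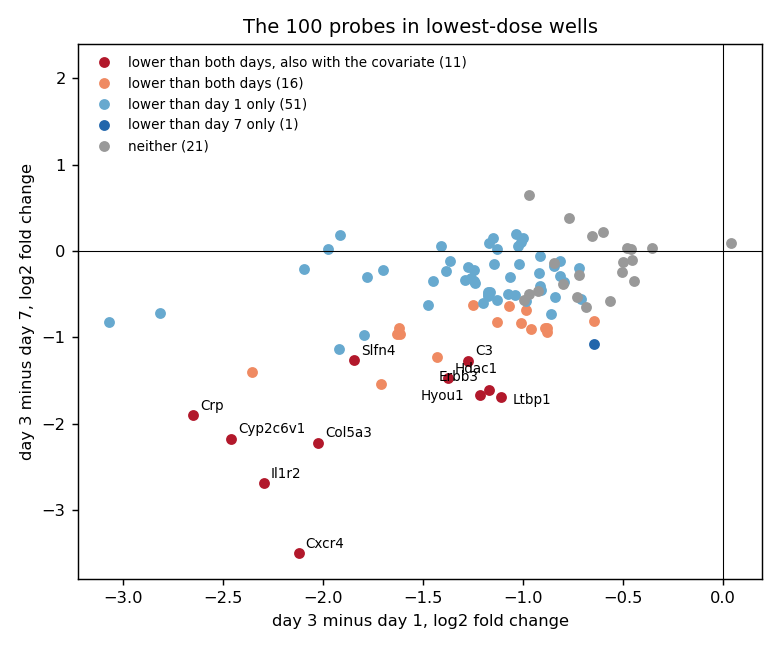
Log2 fold changes of the 100 members in lowest-dose wells, day 3 minus day 1 (x axis) against day 3 minus day 7 (y axis), coloured by which tests were passed. The 11 named genes lie below -1 on both axes, and the median of the 100 members is -0.47 on the y axis.

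In the lowest-dose wells the lowest, median and highest of 32 libraries a day were, for Crp, 51.2, 100 and 314 CPM on day 1. They were 6.20, 15.0 and 43.7 CPM on day 3. On day 7 Crp had 17.4, 77.0 and 188 CPM. Its log2 fold change was -2.65 ± 0.23 (SE) against day 1 and -1.90 ± 0.22 against day 7 (edgeR, adjusted p = 3.5e-16 and 3.9e-11). Every day 3 library of Crp lay under every day 1 library.

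C3, the central complement component, had 147, 495 and 1672 CPM on day 1 in these wells. On day 3 the values were 44.4, 192 and 743 CPM, and on day 7 they were 72.8, 456 and 2506 CPM. Its days overlapped, and its log2 fold change was -1.27 ± 0.24 against day 1 and -1.27 ± 0.24 against day 7 (SE; edgeR adjusted p = 1.4e-05 and 1.1e-05). Il1r2, a decoy receptor for interleukin 1, changed by -2.29 ± 0.35 and -2.69 ± 0.36 (adjusted p = 1.8e-07 and 2.7e-09, edgeR). Its medians were 23.2, 4.19 and 30.5 CPM on days 1, 3 and 7.

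Il1rn, the interleukin 1 receptor antagonist, fell by 1.25 and Il6st by 1.62 on the log2 scale against day 1 (SE 0.19 and 0.25; edgeR adjusted p = 1.7e-07 for each). Cxcr4, the receptor of the chemokine CXCL12, changed by -2.12 ± 0.38 against day 1 and -3.50 ± 0.40 against day 7 (edgeR adjusted p = 4.0e-06 and 1.3e-11), with medians of 6.56, 1.83 and 25.3 CPM on days 1, 3 and 7. Slfn4, of the schlafen family, changed by -1.85 ± 0.28 and -1.27 ± 0.28 (edgeR adjusted p = 1.7e-07 and 1.5e-04). The day 7 difference of Slfn4 missed the threshold without plate 5 (edgeR adjusted p = 0.096).

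Cxcr4, Il1r2 and Slfn4 are known in white blood cells. In vehicle wells the summed macrophage markers (19 of 20 with a probe) were 180 to 400 CPM on day 1, 136 to 630 CPM on day 3 and 502 to 1815 CPM on day 7. The summed neutrophil and erythroid markers (7 of 9 with a probe) were 0 to 1.55 CPM, 0 to 2.64 CPM and 1.03 to 10.7 CPM on days 1, 3 and 7. Their part in the day 7 values was not tested.

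The rest of the acute phase list did not share the members' pattern as a group. Of its 11 other probes tested, 3 fell and 1 rose on day 3 against day 1 (median log2 fold change -0.17), and 0 were lower and 1 higher against day 7 (median 0.13). Orm1, an acid glycoprotein, fell by 1.38 on the log2 scale against day 1, and Hpx, the haem carrier hemopexin, fell by 1.10 against day 1 and was higher by 1.66 than on day 7 (SE 0.25, 0.28 and 0.28; edgeR adjusted p = 8.7e-06, 0.0012 and 1.2e-06). Cp, ceruloplasmin, rose by 1.22 ± 0.24 against day 1 (edgeR adjusted p = 2.3e-05).

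Cyp2c6v1, a cytochrome P450 of liver, had 39.0, 71.7 and 186 CPM on day 1 in the lowest-dose wells (lowest, median and highest). On day 3 it had 1.10, 12.8 and 44.8 CPM, and on day 7 6.81, 59.9 and 472 CPM. Its log2 fold change was -2.46 ± 0.25 against day 1 and -2.18 ± 0.24 against day 7 (SE; edgeR adjusted p = 1.8e-13 and 9.4e-12). Hyou1 had medians of 59.5, 29.1 and 114 CPM and changed by -1.21 ± 0.19 and -1.67 ± 0.19 (edgeR adjusted p = 2.0e-07 and 1.7e-11). The 22 other probes of the stress response list held 6 that fell and 3 that rose against day 1, and 3 lower and 6 higher against day 7.

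Matrix and signalling members were also called lower on day 3. Col5a3, a chain of type V collagen, had medians of 16.0, 3.84 and 22.8 CPM on days 1, 3 and 7 and changed by -2.03 ± 0.30 and -2.22 ± 0.30 (SE; edgeR adjusted p = 5.3e-08 and 3.6e-09). Ltbp1, which holds latent TGF-beta in the matrix, changed by -1.11 ± 0.22 and -1.69 ± 0.22 (edgeR adjusted p = 2.7e-05 and 1.2e-09). Erbb3, a receptor of neuregulins, changed by -1.17 ± 0.22 and -1.61 ± 0.23 (edgeR adjusted p = 1.7e-05 and 1.0e-08). Hdac1, a histone deacetylase, changed by -1.38 ± 0.30 and -1.47 ± 0.30 (edgeR adjusted p = 1.6e-04 and 4.3e-05). In the same wells the summed-marker lists moved too: of 15 stellate and mesenchymal probes tested 12 rose against day 1 and 14 were lower than on day 7, and the part of such cells in the matrix genes was not tested. LOC100361240, which matched no RefSeq gene, fell by 1.45 on the log2 scale against day 1 (SE 0.21; edgeR adjusted p = 5.3e-08).

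**Figure D3:**
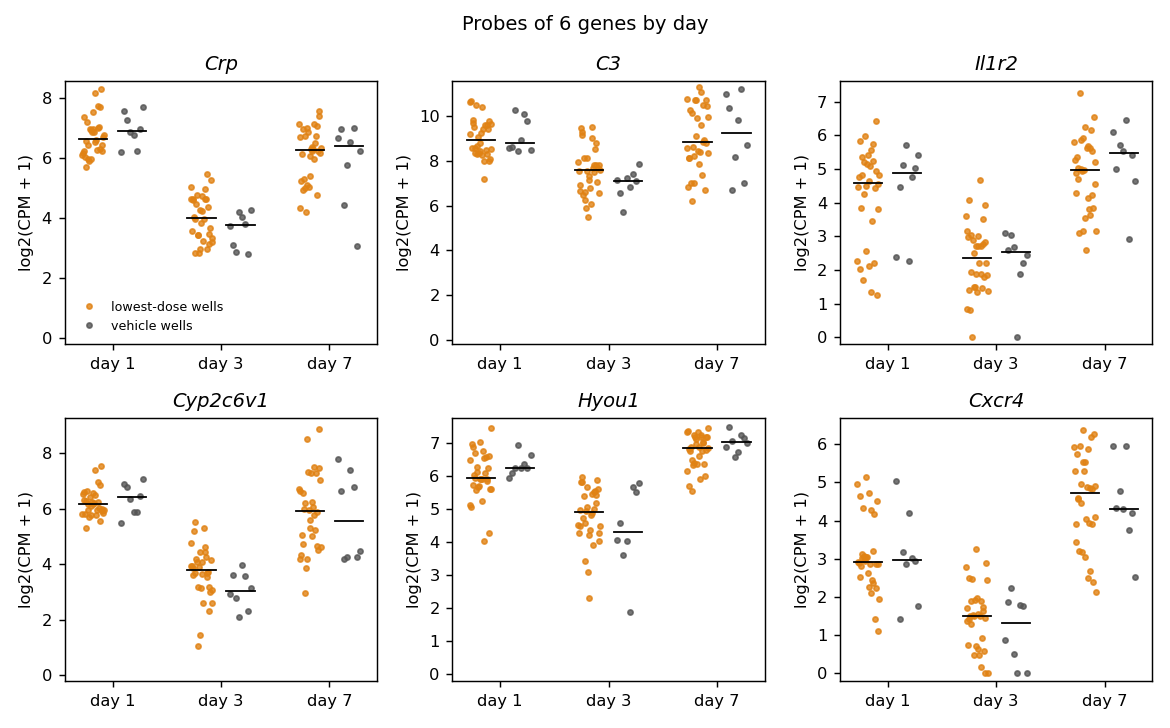
Level of 6 members by day as log2(CPM + 1); points are libraries (32 lowest-dose and 8 vehicle libraries a day, both cultures), bars are medians. In the lowest-dose wells the median of Crp was 100 CPM on day 1, 15.0 CPM on day 3 and 77.0 CPM on day 7.

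The counts were also taken within the wells of each compound (edgeR, adjusted p under 0.05). On day 3 against day 7, phenobarbital 0.1 mM had 84 of 100 members lower, where 27.8% of all tested probes were lower. The other compounds had counts near the share of all probes: 8 lower with GW7647 0.01 µM (6.42% of all tested probes), 11 with gemfibrozil 10 µM (12.3%) and 7 with ketoconazole 1 µM (7.73%). With gemfibrozil 28 members were higher than on day 7, where 13.8% of all tested probes were higher, and no member was higher with the other 3 compounds. On day 3 against day 1, 51 members were lower with phenobarbital (4.69% of all tested probes), 5 with GW7647 (1.73%), 12 with gemfibrozil (2.91%) and 34 with ketoconazole (4.75%). With gemfibrozil 1 member was higher than on day 1, where 9.21% of all tested probes were higher. The difference between compounds was not tested. Among these wells only those of gemfibrozil on day 3 included plate 9, in each culture. Their member medians there were 6.17 in co-culture and 6.18 in monoculture on the log2(CPM + 1) scale. The other gemfibrozil 10 µM libraries of day 3 had 2.09 to 5.67, so compound and plate 9 cannot be told apart in these counts.

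Most compound wells of day 3 had higher member levels than vehicle. The vehicle wells chose the members, so this too is a description. The members' median log2 difference from vehicle of the same culture lay between -0.48 and 2.68 over the 24 compound groups, with a median of 1.17, while the 5828 eligible probes had medians between -0.07 and 0.54. The excess was present at the lowest doses: GW7647 0.01 µM had 2.28 in co-culture and 0.87 in monoculture, gemfibrozil 10 µM 1.75 and 1.05, and ketoconazole 1 µM 1.01 and 0.81. Phenobarbital 0.1 mM had -0.25 in co-culture and -0.48 in monoculture, phenobarbital 1 mM 1.42 and -0.48, and phenobarbital 10 mM 2.68 and 0.995. On day 7, where vehicle was also used in the choice, the same difference lay between -1.64 and 0.45.

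On day 3 the compound wells had 9145 to 14784 probes detected and vehicle wells 8459 to 13115. The part of library complexity in the differences from vehicle was not tested.

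**Figure D4:**
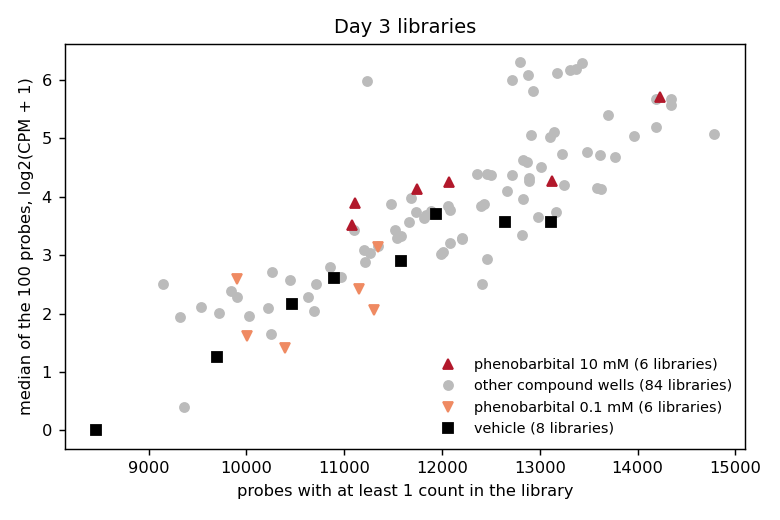
Each point is a library of day 3; x axis, probes with at least 1 count, y axis, median of the 100 members as log2(CPM + 1). Phenobarbital 10 mM wells lie between 3.52 and 5.71 on the y axis, above all phenobarbital 0.1 mM wells, which lie between 1.40 and 3.14.

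To ask how a compound changes the members without the vehicle wells, the top dose was compared with the lowest dose on day 3, averaged over both cultures, in 1 edgeR fit of the 24 compound groups. With phenobarbital, 21 of 100 members rose at 10 mM against 0.1 mM and 0 fell, where 6.84% of 13417 tested probes rose and 7.87% fell. At an unadjusted p under 0.05 the counts were 53 up and 2 down, where 4121 of 13417 tested probes passed in either direction. DESeq2 called 43 and 0, where 12.1% and 9.5% of its tested probes were called. The members' median log2 fold change was 1.89 and that of all tested probes 0.21. Scaling by library totals moved the median of all tested probes to 0.70. Then 1965 probes rose (14.6%) and 595 fell, against 918 and 1056 in the main scaling, with 40 members up. The count was 4 without plate 5 (1.98% of all tested probes rose), 2 without plate 7 (0.768%) and 48 without plate 9 (12.1%). Plate 9 held no phenobarbital well of day 3.

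The 10 mM wells had 11077 to 14227 probes detected (median 11910), and the 0.1 mM wells 9904 to 11345 (median 10774). The 10 mM wells had 0 to 3 members at 0 counts, and the 0.1 mM wells 3 to 32. Of the marker probes tested, 9 of 23 for hepatocytes, 7 of 13 for stellate and mesenchymal cells and 5 of 18 for macrophages fell at 10 mM, and none rose. Their part in the members' changes was not tested. Probes detected differed between these doses, so that number and dose cannot be fully told apart. With probes detected as a covariate 8 members rose, where 3.7% of all tested probes rose. They were Stau1, Hmox1, LOC103691744, Ftl1l1, Vegfa, Hyou1, Rab30 and Ern1, all among the 21. In that fit 1 member fell, C3, where 6.78% of all tested probes fell.

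Ern1, which encodes the stress sensor IRE1, moved the farthest relative to its error. It had 107, 62.4 and 276 CPM in co-culture and 44.1, 64.9 and 31.0 CPM in monoculture at 10 mM. At 0.1 mM it had 0.131, 3.08 and 1.91 CPM in co-culture and 0.776, 1.80 and 0.948 CPM in monoculture. The doses did not overlap, and the log2 fold change was 5.33 ± 0.91 (SE; edgeR adjusted p = 2.7e-05). The call held in all 13 alternatives (adjusted p between 9.4e-11 and 0.022).

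Hyou1 had 275, 101 and 145 CPM in co-culture and 98.5, 133 and 105 CPM in monoculture at 10 mM. At 0.1 mM it had 49.1, 7.48 and 17.7 CPM in co-culture and 18.4, 15.2 and 21.2 CPM in monoculture. The doses did not overlap, and the log2 fold change was 2.17 ± 0.46 (SE; edgeR adjusted p = 7.1e-04), lost only in each culture alone among the 13 alternatives. Its RefSeq promoter is the one printed above with 2 stress element pairs.

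The stress response list held further genes that rose. Of its 22 other probes, 10 rose and 0 fell with phenobarbital, with a median log2 fold change of 0.97. Named by smallest p were Trib3 at 2.26 ± 0.37, a pseudokinase induced by stress, Ddit3 at 3.72 ± 0.64, the stress transcription factor CHOP, Chac1 at 2.19 ± 0.49, which breaks down glutathione, and Hspa5 at 2.47 ± 0.65, the chaperone BiP (SE; edgeR adjusted p = 1.7e-05, 3.5e-05, 0.0012 and 0.0062). Selenos, a member that takes part in clearing protein from the endoplasmic reticulum, rose by 3.32 ± 1.20 (adjusted p = 0.049, edgeR). Its call was lost without plate 5, without plate 7, in each culture alone, with no filter on low counts and with probes detected as a covariate (highest edgeR adjusted p 0.51).

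Vegfa, the vascular growth factor, had 258, 73.4 and 581 CPM in co-culture and 46.3, 95.5 and 49.6 CPM in monoculture at 10 mM. At 0.1 mM it had 20.2, 15.4 and 11.9 CPM in co-culture and 15.5, 8.59 and 8.38 CPM in monoculture. The doses did not overlap, and the log2 fold change was 2.84 ± 0.71 (SE; edgeR adjusted p = 0.0042). The call was lost without plate 7 (edgeR adjusted p = 0.069) and in each culture alone (range over alternatives 3.25e-04 to 0.27). Of the 23 other probes of the glycolysis and hypoxia list 3 rose and 2 fell.

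Ftl1l1, a ferritin light chain gene, had 77.9, 135 and 452 CPM at 10 mM and 3.62, 11.1 and 17.2 CPM at 0.1 mM (lowest, median and highest of 6 libraries). Hmox1 had 13.6, 49.7 and 82.6 CPM at 10 mM and 0, 0.884 and 5.00 CPM at 0.1 mM. Neither gene overlapped between doses, with log2 fold changes of 3.51 ± 0.92 and 4.85 ± 1.53 (SE; edgeR adjusted p = 0.0063 and 0.024). Both were lost without plate 5, without plate 7 and in each culture alone. Of the 15 other probes of the NRF2 list, targets of the oxidative stress factor that also controls Hmox1, 6 rose and 0 fell, among them Gsta2 at 4.62 ± 0.62, a glutathione transferase, and Slc7a11 at 4.28 ± 0.91, a cystine transporter (SE; edgeR adjusted p = 3.3e-07 and 6.3e-04).

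Rab30, a small GTPase of the Golgi, had 43.3, 57.6 and 92.5 CPM at 10 mM and 0, 4.04 and 12.05 CPM at 0.1 mM (lowest, median and highest). It rose by 3.16 ± 0.78 on the log2 scale (SE; edgeR adjusted p = 0.0035). Stau1, which binds double-stranded RNA, rose by 5.40 ± 1.51, Pdp2, a phosphatase of pyruvate dehydrogenase, by 1.91 ± 0.52 and LOC103691744, which matched no RefSeq gene, by 4.42 ± 1.07 (SE; edgeR adjusted p = 0.011, 0.0086 and 0.0030). These 4 were each lost without plate 7, and Rab30, Stau1 and Pdp2 also without plate 5. The other members called included Igbp1, Dcaf12, Cdc27, Smurf2, Usp36, Il6st, Wdr82, AABR07021930.1, Cstb1 and LOC100361240, with adjusted p between 0.017 and 0.048. Of the 21 called, 18 had every 10 mM library above every 0.1 mM library, as did 43 of all 100 members. The share of all tested probes without such overlap was not counted, so nothing about the members is read from these counts.

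Neither acute phase member passed the test at 10 mM phenobarbital. Crp had 0.618, 8.64 and 22.1 CPM at 10 mM and 6.82, 11.2 and 37.8 CPM at 0.1 mM (lowest, median and highest), with overlapping doses and a log2 fold change of -1.44 ± 0.66 (SE; edgeR adjusted p = 0.12). C3 had 74.4, 85.7 and 149 CPM at 10 mM and 44.4, 173 and 223 CPM at 0.1 mM, a log2 fold change of -1.15 ± 0.51 (edgeR adjusted p = 0.11). Of the 11 other probes of the acute phase list 5 fell and 0 rose. Those with the smallest p were the fibrinogen chains Fga at -4.67 ± 0.96, Fgg at -2.50 ± 0.56 and Fgb at -2.38 ± 0.66, and Cp at -2.67 ± 0.57 (SE; edgeR adjusted p = 4.2e-04, 0.0013, 0.0099 and 7.2e-04). Of the 100 members 11 had a log2 fold change below 0 with phenobarbital, none of them called, among them Erbb3, Crp, Mgat1, C3, Il1rn, Cxcr4, Slfn4, Itpr2, Ltbp1 and Zfp276.

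**Figure D5:**
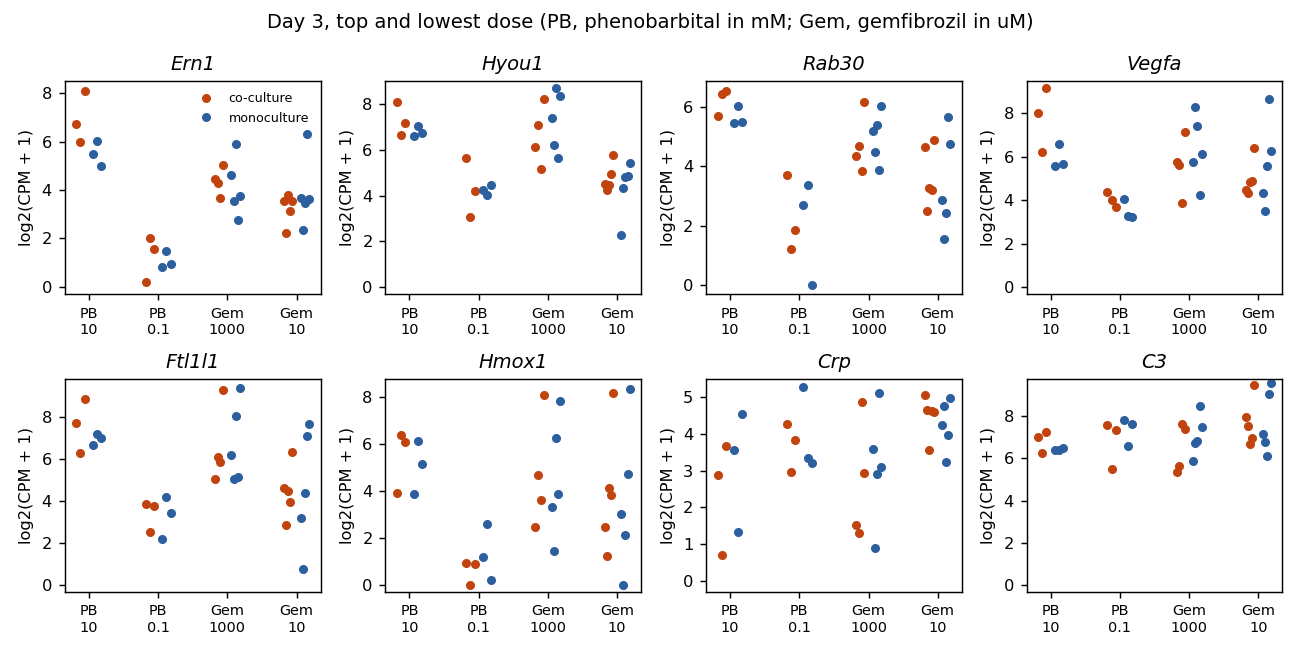
Day 3 level of 8 members as log2(CPM + 1) at the top and lowest dose of phenobarbital (6 libraries each) and gemfibrozil (9 and 10 libraries); points are libraries, coloured by culture. Ern1, Hyou1, Rab30, Vegfa, Ftl1l1 and Hmox1 do not overlap between phenobarbital doses, whereas Crp and C3 do.

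Gemfibrozil raised 2 members at 1000 µM against 10 µM and lowered 0, where 2.47% of tested probes rose and 3.01% fell. At an unadjusted p under 0.05 the counts were 6 and 6, where 2490 of 13417 tested probes passed in either direction. DESeq2 called 3 up and 2 down, where 3.55% and 6.38% of its tested probes were called. Hyou1 had 70.3, 134, 34.9 and 303 CPM in co-culture and 169, 72.7, 416, 49.0 and 326 CPM in monoculture at 1000 µM. At 10 µM it had 21.6, 18.3, 21.2, 30.2 and 55.0 CPM in co-culture and 3.92, 19.4, 27.0, 28.5 and 42.8 CPM in monoculture. Only plate 7 wells at 1000 µM lay within the 10 µM range, and the log2 fold change was 2.67 ± 0.37 (SE; edgeR adjusted p = 1.4e-06), past the threshold in all 13 alternatives (adjusted p up to 0.035).

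Ftl1l1 rose by 2.29 ± 0.69 with gemfibrozil (SE; edgeR adjusted p = 0.032), and was lost without plate 1, 3, 5 or 9 (highest adjusted p 0.23; range over alternatives 0.0021 to 0.51), each of which left 1 member called. Without plate 7, 4 members rose and 2 fell, where 2.83% and 6.31% of all tested probes did. Ern1 changed by 0.73 ± 0.59 (adjusted p = 0.58, edgeR). Of the stress response list, 15 of its 22 other probes rose and 0 fell, with Ddit3 at 3.16 ± 0.49, Hspa5 at 3.07 ± 0.52, Creld2 at 2.05 ± 0.32 and Dnajc3 at 1.66 ± 0.28, the last 2 proteins of the endoplasmic reticulum (SE; edgeR adjusted p = 1.1e-05, 5.9e-05, 9.5e-06 and 5.2e-05). Of the other acute phase probes 2 fell and 0 rose.

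Ketoconazole lowered 2 members at 30 µM against 1 µM and raised 0, where 1.04% of tested probes fell and 0.537% rose. At an unadjusted p under 0.05 the counts were 5 down and 4 up, where 1832 of 13417 tested probes passed in either direction. DESeq2 called 3 down and 0 up, where 3.15% and 1.33% of its tested probes were called. Erbb3 had 2.49, 1.22, 2.54 and 0 CPM in co-culture and 5.15, 4.75, 3.72 and 2.63 CPM in monoculture at 30 µM. At 1 µM it had 9.57, 4.91, 5.12 and 14.4 CPM in co-culture and 15.7, 20.1, 13.4 and 15.2 CPM in monoculture. Within each culture the doses did not overlap, and the log2 fold change was -2.14 ± 0.60 (SE; edgeR adjusted p = 0.045).

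Col5a3 had 0.622, 1.22, 1.17 and 1.38 CPM in co-culture and 0.736, 0.619, 1.43 and 0 CPM in monoculture at 30 µM. At 1 µM it had 3.42, 5.49, 12.8 and 12.2 CPM in co-culture and 4.15, 11.9, 2.66 and 3.31 CPM in monoculture. The doses did not overlap, and the log2 fold change was -2.87 ± 0.82 (SE; edgeR adjusted p = 0.049). Leaving out plate 1, 3, 5 or 7 left neither gene called (highest edgeR adjusted p 0.40 for Erbb3 and 0.34 for Col5a3). The counts of members lowered were then 0, 0, 1 and 0, where 0.155%, 0.331%, 0.708% and 0.3% of all tested probes fell.

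GW7647 moved 0 members in either direction at 1 µM against 0.01 µM in edgeR's test, where 0.149% of tested probes rose and 0.0149% fell. At an unadjusted p under 0.05 the counts were 13 up and 6 down, where 3506 of 13417 tested probes passed in either direction. DESeq2 called 6 up and 3 down, where 5.88% and 5.75% of its tested probes were called. The 1 µM wells had 9321 to 13433 probes detected and the 0.01 µM wells 10026 to 14186. With probes detected as a covariate 18 members rose, where 5.54% of all tested probes rose. The members' median log2 fold change was 0.45, with 68 of 100 above 0, and without plate 9 it was -0.51, with 83 below 0. Plate 9 held 1 µM wells of both cultures and no 0.01 µM well, so dose and plate cannot be told apart there. The plate 9 member medians were 6.29 in co-culture and 5.99 in monoculture on the log2(CPM + 1) scale. The other 1 µM libraries had 0.40 to 5.12 and the 0.01 µM libraries 1.97 to 5.19.

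Dose effects were not shown to differ between the cultures. For none of the 4 compounds did a member pass the test of the difference in dose effect between co-culture and monoculture in edgeR's test. Of all 13417 tested probes 0 passed for each compound, so nothing particular to the members is read from this. At an unadjusted p under 0.05 there were 2 members for phenobarbital and 0 for the other compounds. Of all tested probes 527 passed for phenobarbital, 263 for GW7647, 235 for gemfibrozil and 284 for ketoconazole. With phenobarbital the members' median difference, co-culture minus monoculture, was 1.14 on the log2 scale, with 85 above 0 and 15 below. That of all tested probes was 0.14. The members' medians were -0.35 with GW7647, 0.21 with gemfibrozil and 0.34 with ketoconazole. DESeq2 was not run for this difference.

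The difference between cultures in day 3 vehicle wells is given as a description, because these wells chose the members and the rule favours a probe near 0 in either culture. Co-culture against monoculture, 1 member was past the threshold of edgeR's fit and lower, where 0.0169% of 11823 tested probes were lower, and nothing is read from that count. The member was RGD1562218, which RefSeq names C19h1orf131. It had 0, 0, 0 and 0.625 CPM in co-culture, against 1.77, 3.42, 5.50 and 7.76 CPM in monoculture. The members' median log2 fold change was -1.05, and with probes detected as a covariate it was -0.23. That of all tested probes was -0.01. The count was 5 without plate 1 (0.0924% of all tested probes) and 0 without plate 3, 5 or 7 (0% each). The co-culture wells had 9702 to 11577 probes detected and the monoculture wells 8459 to 13115. On day 1 and day 7 the members' medians were -0.15 and -0.06.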

How the data were processed

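The authors deposited 1 table of raw TempO-Seq read counts per probe, whole numbers that were not normalized; Bowtie is named in the submitters' processing notes, and neither its version nor a genome build was found in the labels. From these counts, CPM of the library total and log2(CPM + 1) were computed (Python 3.11.15, pandas 2.3.3, numpy 2.4.6). Tests were edgeR 4.0.16 quasi-likelihood tests in R 4.3.3 with TMM scaling, filterByExpr (minimum count 10), group means and Benjamini-Hochberg adjustment over all probes tested, threshold 0.05, two-sided; DESeq2 1.42.0 was an alternative. The members, the gene lists and the tests were chosen with earlier results of these data known. Genes were named by rule: the 24 highest dips, up to 8 members of smallest p in each comparison, members of a fixed list and the 3 probes on each side of the limit. Other genes were named beyond this rule, among them some sorted by role and further members called with phenobarbital. Some genes that this rule names are not reported here.

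The group of each library came from the labels. The description was followed for 33 monoculture libraries described as phenobarbital and labelled ketoconazole, and for 3 co-culture libraries described as GW7647 0.1 µM and labelled 1 µM. Phenobarbital doses are in mM, as in the study's design text. Library totals were 412414 to 12272575 counts, and 72 members were at 0 counts in 1 or more day 3 vehicle libraries. Tested on simulated data for phenobarbital top against lowest dose, with 13417 probes, the fit recovered 9 of 100 2-fold and 30 of 100 4-fold changes and called 0 unchanged probes.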

Additional observations from a re-analysis of the deposited data

Results flagged for a closer look

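Of 126 sets of values (a member median or a gene within 1 group) screened for a library far from the others, 4 were picked out; chance alone gives about 1 in 20. In day 3 vehicle monoculture, the library of plate 1 had a member median of 0 on the log2(CPM + 1) scale, while the other 3 had 3.56, 3.57 and 3.71. In day 3 monoculture with ketoconazole 10 µM, plate 1 had 2.93, while the other 3 had 4.20, 4.31 and 4.37. In day 1 vehicle co-culture, plate 5 stood apart for 2 of the 17 genes screened by library: C3 had 1261 CPM and Ftl1l1 159 CPM there. The other libraries of that group had 345 to 397 CPM for C3 and 11.2 to 35.5 CPM for Ftl1l1. That library also had the highest total of the vehicle libraries of day 1, 10820668 counts.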

How the results depend on the processing

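Of the alternative values of the counts reported, 97 stayed within 1.5 times the count given and 66 did not; the cause was not tested. The digits shared by libraries are not said to pair them: deviations of libraries with the same number had a mean correlation of 0.18 in the dose libraries, 0.13 in the lowest-dose libraries and 0.18 in vehicle, against -0.05, -0.04 and -0.06 between numbers. With that number as a replicate block, phenobarbital moved 53 members up and 2 down, where 14.9% and 13.1% of all tested probes moved. Gemfibrozil moved 4 up and 4 down (5.66% and 6.86% of all tested probes), and ketoconazole 11 up and 2 down (3.92% and 3.6%). With the block 70 members were lower on day 3 than on day 7, where 27.2% of all tested probes were. For GW7647 the members' median was then -0.69, with 87 below 0.

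Phenobarbital raised 43 members in DESeq2 (12.1% of all tested probes), 40 with library totals (14.6%) and 8 with probes detected as a covariate (3.7%). It raised 1 in monoculture alone (0.425%), 3 in co-culture alone (0.969%) and 2 to 48 when 1 plate was left out (0.768% to 12.1%). It lowered 1 with the covariate (6.78%) and 0 to 1 without 1 plate (1.3% to 10.9%). GW7647 raised 6 and lowered 3 in DESeq2 (5.88% and 5.75% of all tested probes) and raised 18 with the covariate (5.54%). Gemfibrozil raised 1 with library totals (2.32%), 4 with the covariate (4.23%), 1 in monoculture alone (0.291%) and 1 in co-culture alone (0.216%). Without 1 plate it raised 1 to 4 (0.372% to 2.83%) and lowered 0 to 2 (0.197% to 6.31%). It lowered 2 in DESeq2 (6.38%) and 3 with the covariate (4.2%). Ketoconazole lowered 0 with no filter on low counts (0.501% of all tested probes), 1 with library totals (0.939%) and 0 in monoculture alone (0.0373%). It lowered 0 in co-culture alone (0.0447%), 1 with vehicle libraries in the fit (1.32%) and 0 to 2 without 1 plate (0.155% to 2.44%).

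Members lower on day 3 than on day 1 numbered 40 in monoculture alone (5.96% of all tested probes) and 38 to 97 without 1 plate (7.95% to 22.8%). They numbered 51, 5, 12 and 34 with phenobarbital, GW7647, gemfibrozil and ketoconazole alone. Those lower than on day 7 numbered 11 with the covariate (21.8%), 18 in monoculture alone (14.8%) and 15 in co-culture alone (14.2%). They numbered 18 to 59 without 1 plate (17.9% to 25.8%), and 84, 8, 11 and 7 with the same compounds alone. The day 7 difference of Hdac1 turned to 0.10 with GW7647 0.01 µM alone. Scaling by library totals moved the median of all tested probes between day 3 and day 7 from -0.10 to -0.38, with 4363 probes lower and 847 higher against 3046 and 2010, and 40 members lower. Members lower in co-culture numbered 7 in DESeq2 (0.288% of all tested probes), 3 with no filter (0.0371%) and 0 with library totals (0%). They numbered 0 with the covariate (0%) and 0 to 5 without 1 plate (0% to 0.0924%). These vehicle wells chose the members, so nothing is read from the counts.

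The rule kept 65 members from monoculture alone, 36 with a minimum of 30 CPM and 60 to 84 without 1 plate; 41 members were picked again whichever plate was left out. Values at 0 counts on day 3 limit the precision of the members, and the part of depth in them was not tested. Among day 7 libraries, 1 with 412414 counts had 60 members at 0, 1 with 1355914 had 14 and 1 with 2192472 had 3. The day 3 vehicle monoculture library of plate 1, with 3392976 counts, had 64, and it took part in the choice of members.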
